A study of Mus musculus with 14 samples.

Results

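The mouse mitochondrial genome encodes 37 genes: 13 protein genes, 2 rRNA genes and 22 tRNA genes. They were taken as every gene whose symbol begins with mt-, and they made up 37 of the 55422 entries of the count table, which holds 55421 mouse genes and a human tau construct. RNA was measured in brainstem tissue of 7 animals, each named by a letter in the sample titles. Per the labels, the mice carried TH-Cre and Slc6a2-eGFP/Rpl10a, came from a Th-cre line crossed with a Slc6a2-eGFP/Rpl10a line whose strain name includes B6 and FVB, and had a C57Bl/6 background. At 2 to 3 months of age they were infused stereotaxically in the locus coeruleus. The infusion was P364S mutant human tau in 4 animals (B, C, L and M) and EYFP in 3 (H, I and K). Animals B, I and L were labelled male, and C, H, K and M female. Each animal gave 1 library of the total homogenate before immunoprecipitation (pre-IP) and 1 library of the immunoprecipitate (IP), so that there were 4 tau IP, 3 EYFP IP, 4 tau pre-IP and 3 EYFP pre-IP libraries. The tagged ribosomal protein Rpl10a is driven by regulatory sequence of Slc6a2, the noradrenaline transporter gene, and the pre-IP is labelled as total brainstem, so it held RNA of many cell types. The labels do not say whether the infused constructs needed Cre, how many days passed before tissue was taken, or which line gave the mothers.

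Mitochondrial DNA is transcribed from both strands as long precursors, which are cut mostly at the tRNAs that lie between the other genes. The 2 rRNAs, mt-Rnr1 (12S) and mt-Rnr2 (16S), form the core of the mitochondrial ribosome, which translates the mRNAs inside the organelle. The mRNAs encode membrane subunits of complexes I, III and IV of the respiratory chain and of the ATP synthase, complex V. Most mitochondrial mRNAs and the rRNAs carry short poly(A) tails, and mature tRNAs do not. The labels give the molecule as polyA RNA. Mitochondrial ribosomes do not contain Rpl10a, which is a protein of the cytosolic ribosome.

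The libraries held 41843489 to 65664551 counts on genes. The tau construct had 6943 to 47177 counts in tau IP libraries and 3527 to 11358 in tau pre-IP libraries, against 16 to 398 in EYFP IP and 2 to 408 in EYFP pre-IP libraries. All 12 noradrenergic markers, among them Dbh, Th and Slc6a2, had counts, and their mean log2 enrichment in the IP ran from 0.68 to 0.95 in EYFP animals and from 1.74 to 4.44 in tau animals, without overlap. The letters were taken as animals, and nothing else in the labels says how the samples of a group were separated, so p-values measure the spread between these samples only. Counts from 1 to 39 were even in 73.0 to 76.7 percent of cases, depending on the library. Whether reads or read pairs were counted is not given in the sources used here. The counting intervals below concern counting error only and take each count as independent. If both reads of a pair were counted, these intervals are too narrow.

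The mitochondrial share of the library, the percent of all counts that fell on the 37 genes, was higher in the IP than in the pre-IP in 6 of 7 animals and lower in animal B. In the tau IP libraries it was 0.298 percent in B, 0.950 in C, 0.957 in L and 1.21 in M. In the EYFP IP libraries it was 1.28 percent in H, 1.25 in I and 0.916 in K. The tau pre-IP shares were 1.03 percent in B, 0.832 in C, 0.705 in L and 0.704 in M. The EYFP pre-IP groups overlapped with these, at 0.957 percent in H, 1.01 in I and 0.547 in K. The exact 95% binomial interval of a share was at most 0.00627 percentage points wide, so counting error was far smaller than the spread between animals. The group means were 0.854 ± 0.390 percent (SD, n = 4) in tau IP, 1.15 ± 0.203 (SD, n = 3) in EYFP IP, 0.818 ± 0.154 (SD, n = 4) in tau pre-IP and 0.837 ± 0.253 (SD, n = 3) in EYFP pre-IP. The tau and EYFP ranges overlapped in both fractions. Within an animal the IP share was 0.289 times the pre-IP share in B, 1.14 times in C, 1.36 times in L and 1.72 times in M. The same ratio was 1.34 in H, 1.24 in I and 1.68 in K. A sum over genes chosen with earlier results known was given no test.

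**Figure D1:**
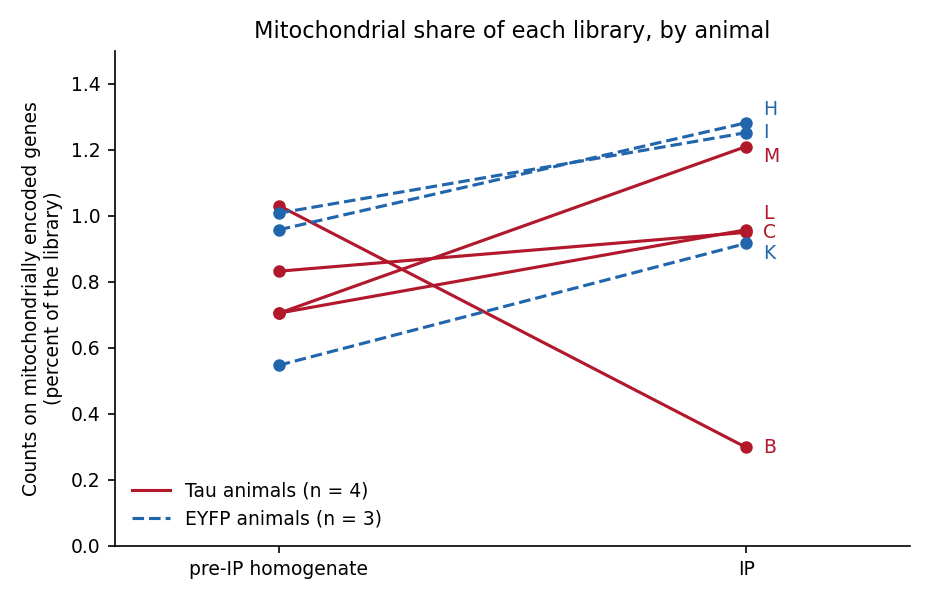
Percent of each library's counts on the 37 mitochondrially encoded genes, with the pre-IP and IP of an animal joined (solid red, 4 tau animals; dashed blue, 3 EYFP animals). Of the 7 lines 6 rise, and animal B falls from 1.03 to 0.298 percent.

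The library of animal B stood apart in other ways that were not tested as a cause. Its IP RNA was listed at 0.1 ng/µL, the lowest of the 14 libraries, and its noradrenergic enrichment of 4.44 was the highest of the 7 animals. Its RNA integrity number was 7.7, while that of the IP of animal I was 4.2. The shares also moved with the library numbers in the labels. Pre-IP libraries numbered up to 11 (animals B, C, H and I) had shares of 0.832 to 1.03 percent, and those numbered from 17 (K, L and M) had 0.547 to 0.705 percent, without overlap. In the IP the tau mean minus the EYFP mean was -0.643 percentage points among animals with pre-IP and IP numbers up to 11 (2 tau, 2 EYFP) and 0.168 among those from 17 (2 tau, 1 EYFP). The direction of the tau contrast in the share therefore differed between the ranges, and the part of the library range in it was not tested. In bulk libraries, fewer cells of a type and less RNA per cell cannot be told apart.

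Protein genes held most of the mitochondrial counts in every library, from 55.9 to 73.1 percent, and the 2 rRNA genes held 26.4 to 43.6 percent. The tRNA genes held 0.448 to 1.18 percent, and the top of that range was the IP of animal B. The 9 genes with at least 1000 counts in every library (mt-Rnr1, mt-Rnr2, mt-Nd1, mt-Nd2, mt-Nd4, mt-Nd5, mt-Nd6, mt-Cytb and mt-Co1) together held at least 98.8 percent of the mitochondrial counts. The rRNA part averaged 37.01 ± 4.57 percent (SD, n = 4) in tau IP, 31.7 ± 8.20 (SD, n = 3) in EYFP IP, 30.1 ± 4.46 (SD, n = 4) in tau pre-IP and 28.9 ± 2.16 (SD, n = 3) in EYFP pre-IP. mt-Rnr1 alone made up 9.75 ± 0.235 percent of the mitochondrial counts in tau IP, where its 4 libraries lay close together in spite of the low share of animal B, and 6.82 ± 1.20 percent in EYFP IP. In the pre-IP it made up 6.94 ± 1.07 percent in tau and 7.03 ± 0.618 in EYFP animals. Other parts lay lower in tau IP without overlap: mt-Nd2 (4.41 to 6.04 against 6.06 to 6.68 percent), mt-Nd4 (6.71 to 7.81 against 8.25 to 8.53) and mt-Nd5 (2.96 to 4.16 against 4.21 to 4.75). Parts of the same total trade off, and these differences were not tested.

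Among the protein genes, those of complexes IV and V had very few counts apart from mt-Co1. Levels per kilobase of gene allow for gene length but not for sequence shared with other genes. CPM are counts scaled to a library of 1e+06 counts. On this scale mt-Nd1 and mt-Cytb stood highest in the pre-IP, with means of 1383 ± 289 and 1373 ± 374 CPM per kilobase (SD, n = 7). mt-Co1, the catalytic subunit of complex IV, followed at 1201 ± 369 and mt-Rnr2 at 1168 ± 223. These 4 neighbours differed by less than their SDs. mt-Rnr1 had 596 ± 112, mt-Nd2 340 ± 76.6, mt-Nd4 312 ± 81.8, mt-Nd5 116 ± 34.7 and mt-Nd6 82.9 ± 26.6 CPM per kilobase, where mt-Nd2 and mt-Nd4 again lay within an SD of each other. The other 6 protein genes lay below all of these. mt-Nd3 had 7.47 ± 8.88, mt-Co3 7.09 ± 1.55, mt-Co2 1.45 ± 0.319, mt-Atp6 1.03 ± 0.331, mt-Atp8 0.147 ± 0.0851 and mt-Nd4l 0.0633 ± 0.101 CPM per kilobase. mt-Co2 and mt-Co3 encode the other mitochondrial subunits of complex IV, and mt-Atp6 and mt-Atp8 those of the ATP synthase.

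The low genes lie next to each other on the mitochondrial genome, in a stretch that is also annotated on chromosome 1. In GENCODE M21 (GRCm38), 7 pseudogenes at chr1:24611535-24616197 align in order to mitochondrial bases 6390 to 11042, a span of 4653 bases. Gm28661 is the copy of mt-Co2, Gm10925 (Atp6-ps in the deposited gene table) of mt-Atp6, Gm28437 of mt-Co3, Gm28438 of mt-Nd3 and Gm10222 of mt-Nd4l. Gm29216 covers 31.3 percent of mt-Co1 and Gm28439 63.6 percent of mt-Nd4. The identity of the 7 alignments was 99.7 to 100 percent. Of all 50-base windows of a gene, 98.0 to 100 percent were found exactly in another annotated transcript for mt-Co2, mt-Atp6, mt-Co3, mt-Nd3 and mt-Nd4l, and these 5 genes had 0.0633 to 7.47 CPM per kilobase. For the 9 abundant genes 0 to 62.2 percent of windows were shared, and they had 82.9 to 1383 CPM per kilobase, with no overlap between the 2 sets. mt-Co1 and mt-Nd4, with 51.1 and 62.2 percent of windows shared, were among the abundant genes. mt-Atp8 shared 0 percent with annotated transcripts and had 0 to 3 counts in a library, and it too lies inside the span. Copies outside annotated transcripts were not searched, for mt-Atp8 or for the tRNA genes inside the span. How reads with more than 1 match were counted is not given in the sources used here, so the levels of the 5 genes with nearly all windows shared are uncertain. The places of mt-Co1 and mt-Nd4 in the order per kilobase are uncertain too. Per 1000 windows not shared, mt-Co1 had a pre-IP mean of 2538 CPM, against 1458 for mt-Nd1 and 1435 for mt-Cytb. mt-Nd4 had 856, against 628 for mt-Rnr1. That scale takes all counts to come from windows not shared, which is not known. Whether shared sequence sets the low counts was not tested.

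**Figure D2:**
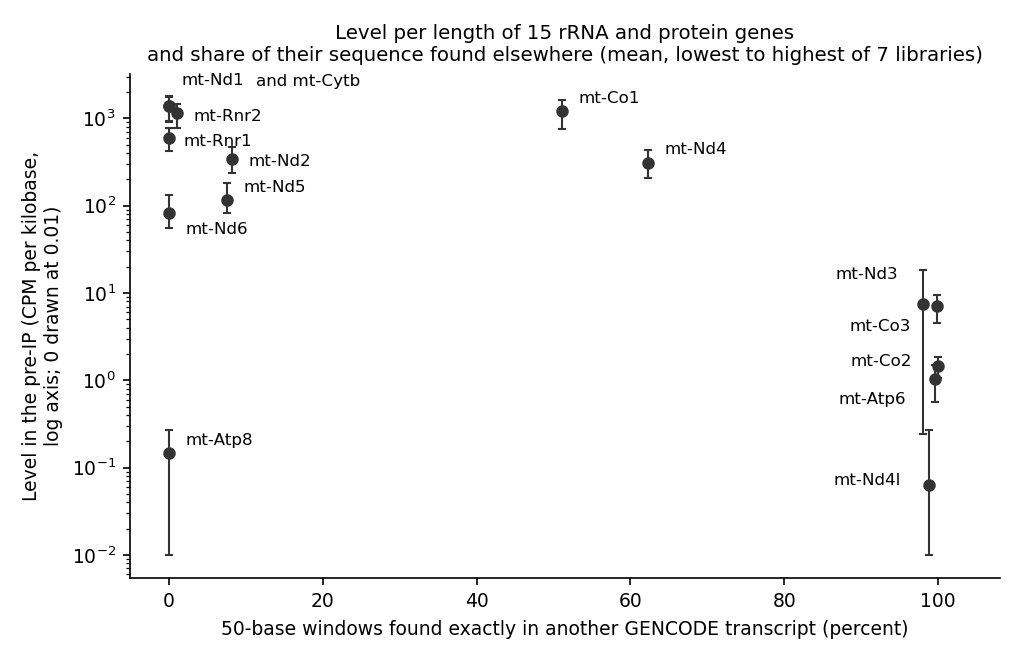
Pre-IP level per kilobase (log axis; points are means and bars run from the lowest to the highest of 7 libraries) against the percent of 50-base windows found exactly in another GENCODE transcript, for the 15 rRNA and protein genes. The 5 genes at 98.0 to 100 percent lie at or below 7.47 CPM per kilobase. mt-Atp8 is also low and shares no window with annotated transcripts, and sequence outside these was not searched.

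The counts on the copies can be set beside those on the 7 mitochondrial genes. mt-Co2 had 12 to 91 counts and Gm28661 14 to 104. mt-Co3 had 52 to 369 counts and Gm28437 50 to 359, with a median ratio of 1.19 over the libraries. mt-Nd4l had 0 to 7 counts and Gm10222 0 to 31. By contrast mt-Co1 had 26847 to 121489 counts against 61 to 176 on Gm29216, and mt-Nd4 had 11224 to 69472 against 3 to 26 on Gm28439. mt-Atp6 had 16 to 54 counts and Gm10925 8 to 144. Where nearly every window was shared, the highest count in a library was thus 399 on the mitochondrial gene and 574 on the copy, both of the pair mt-Nd3 and Gm28438. For mt-Co1 and mt-Nd4, which have sequence of their own, nearly all of the pair's counts lay on the mitochondrial gene.

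mt-Nd3, a membrane subunit of complex I, showed a split between animals that followed neither treatment nor fraction. It is annotated at chrM:9459-9806 (ENSMUSG00000064360.1, an exon of 348 bases) and its copy Gm28438 (ENSMUSG00000101939.1) at chr1:24612775-24613119 on the minus strand, where an unprocessed pseudogene of 345 bases is annotated. The 345 aligned bases differ by a single substitution, T3C, with positions counted from 1 at the first base of mt-Nd3 and the mt-Nd3 base given first; it lies at mitochondrial base 9461. Gm28438 also ends 3 bases before mt-Nd3 does. The first 60 bases of each transcript are shown because they hold the only difference within the aligned bases, which the capital marks (sequences from GENCODE M21, GRCm38, chrM:9459-9518 and chr1:24613060-24613119).
mt-Nd3: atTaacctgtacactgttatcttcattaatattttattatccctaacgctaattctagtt
Gm28438: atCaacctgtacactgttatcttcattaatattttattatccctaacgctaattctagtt

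In the 6 libraries of animals I, L and M, mt-Nd3 had 131 to 399 counts and Gm28438 had 5 to 23. In the 8 libraries of B, C, H and K, mt-Nd3 had 0 to 20 counts and Gm28438 had 61 to 574. The percent of the counts of this pair on mt-Nd3 was 97.6 in the pre-IP and 96.6 in the IP of animal L, and 98.0 and 97.7 in those of animal M. Animal I had 97.9 percent in the pre-IP and 85.1 percent in the IP, with exact 95% intervals of 95.5 to 99.2 and 78.4 to 90.3. The other animals stayed low in both fractions, at 0.733 and 0 percent in B, 2.57 and 3.16 in C, 1.11 and 3.37 in H, and 2.26 and 2.89 in K, pre-IP first. The 0 of 61 counts in the IP of B allows a share of up to 5.87 percent (exact 95% interval). The 2 fractions of an animal were thus on the same side in all 7 animals. Tau animals fell on both sides (L and M high, B and C low), and EYFP animals as well (I high, H and K low). So did both ranges of library numbers and both labelled sexes. The animals were sorted here by the value itself, so no test was made. The genotype of the animals at base 9461 was not measured, and the labels do not name the maternal line, through which mitochondrial DNA is inherited. Sums of mt-Nd3 and Gm28438 over the pair were 148 to 407 counts in I, L and M and 61 to 594 in the other animals, which overlap.

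**Figure D3:**
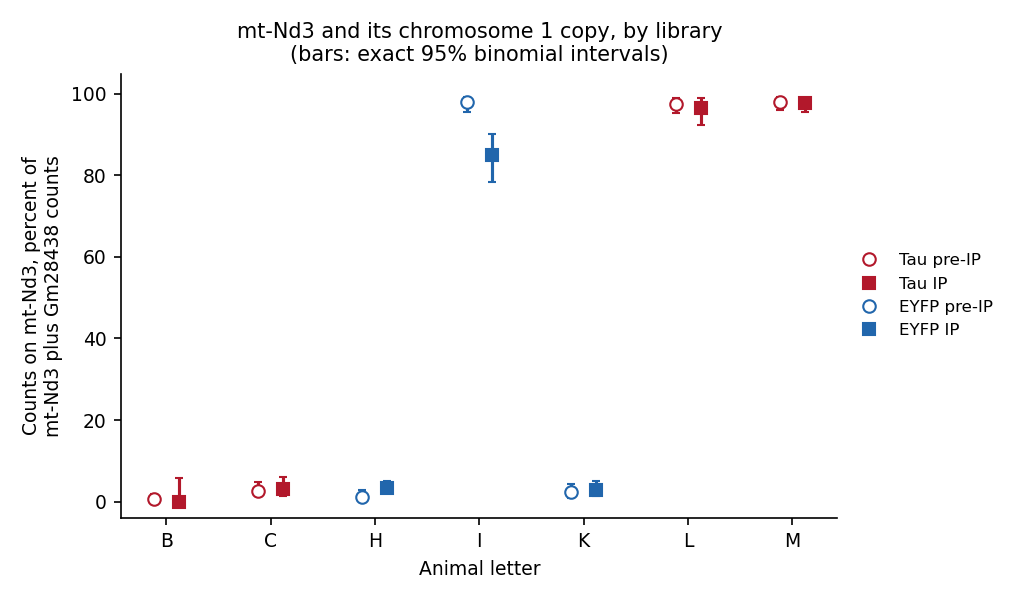
Counts on mt-Nd3 as a percent of the counts on mt-Nd3 plus Gm28438, for the pre-IP (open circles) and IP (filled squares) of each animal, with exact 95% binomial intervals (red, tau; blue, EYFP). Animals I, L and M lie at 85.1 to 98.0 percent and B, C, H and K at 0 to 3.37 percent, in both fractions.

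Among the 22 tRNA genes, 6 had no count in any library (mt-Tw, mt-Ty, mt-Td, mt-Tk, mt-Tg and mt-Th), and 5 of the 22 lie inside the span copied on chromosome 1, where the highest count was 10. Of the 17 outside the span, 13 had counts in every library. A count of 0 allows up to 3 counts, which is 0.0457 to 0.0717 CPM in these libraries. The 5 with the highest mean level were mt-Tq (17.03 CPM), mt-Tp (14.2), mt-Tm (3.87), mt-Tv (3.54) and mt-Te (3.46). They carry glutamine, proline, methionine, valine and glutamate. Of these 5, 3 are annotated on the minus strand (mt-Tq, mt-Tp and mt-Te), as are 8 of the 22. Whether counting used strand is not given in the sources used here, and the library kits named in the labels do not mark strand as usually run, so RNA antisense to a tRNA and the tRNA itself cannot be told apart. The 2 highest tRNAs and the methionine tRNA, which returns below, read as follows in GENCODE M21 (GRCm38; chrM:3772-3842 and chrM:15356-15422 on the minus strand, chrM:3845-3913 on the plus strand).
mt-Tq: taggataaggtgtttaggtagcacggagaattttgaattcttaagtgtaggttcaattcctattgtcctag
mt-Tp: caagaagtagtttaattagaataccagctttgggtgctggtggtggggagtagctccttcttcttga
mt-Tm: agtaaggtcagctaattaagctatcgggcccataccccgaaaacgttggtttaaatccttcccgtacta

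None of the 3 aligned to the transcript of another annotated gene, and the counts do not separate mature tRNAs from uncut precursors. mt-Tq had 14.6, 9.27, 12.5 and 17.7 CPM in the tau IP of B, C, L and M and 29.3, 16.9 and 14.7 in the EYFP IP of H, I and K. In the pre-IP it had 15.9, 17.2, 21.9 and 23.8 CPM in the tau animals and 15.5, 17.5 and 11.6 in the EYFP animals. The IP of H was the highest library, and all 4 groups overlapped. mt-Tp had 8.46 to 16.8 CPM in the 7 pre-IP and 10.3 to 27.6 in the 7 IP libraries, where H was again the highest.

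The comparison of IP with pre-IP asks which RNAs the pull-down of tagged ribosomes enriched. Across 18792 genes tested with edgeR's quasi-likelihood test and Benjamini-Hochberg adjustment, 31 percent were called at an adjusted p under 0.05, 16.3 percent as higher in the IP and 14.7 percent as lower. Of the 26 mitochondrial genes that passed the filter on low counts, 22 had a positive and 4 a negative log2 change. By the same threshold 6 were called higher in the IP and 0 lower. Those called were 4 subunits of complex I (mt-Nd6, mt-Nd5, mt-Nd4 and mt-Nd2) and 2 tRNAs (mt-Tm and mt-Tt). mt-Tt lies outside the rule for named tRNAs and is named because it was called, after its values were seen. The 11 genes left out by the filter were mt-Atp8, mt-Nd4l and 9 tRNA genes. The median log2 change of the 26 was 0.38, against 0.00 over all genes tested.

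mt-Nd6 is the only protein gene on the minus strand of the mitochondrial genome (chrM:13552-14070, ENSMUSG00000064368.1), and it stood out most. Its pre-IP level was 49.4, 46.3, 42.3 and 34.9 CPM in the tau animals B, C, L and M, and 30.7, 68.8 and 28.7 in the EYFP animals H, I and K. Its IP level was 42.5, 128, 126 and 89.6 CPM in the tau animals and 157, 182 and 112 in the EYFP animals. In 6 of 7 animals the IP was higher, and without B every IP library lay above every pre-IP library. The log2 fold change of mt-Nd6 was 1.47 (SE 0.24), with an adjusted p of 0.000335 from edgeR's quasi-likelihood test. Its 3′ end overlaps that of mt-Nd5 on the other strand, which the last 30 bases of each gene show, with the stop codon in capitals (GENCODE M21, GRCm38; chrM:13536-13565 on the plus strand and chrM:13552-13581 on the minus strand). Reads of the other strand over mt-Nd6 cannot be told apart from its own where strand was not used.
mt-Nd5: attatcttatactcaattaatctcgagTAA
mt-Nd6: tttattattatcgagattactcgagatTAA

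mt-Nd5, the neighbour of mt-Nd6, encodes a proton-pumping subunit of complex I and had 104, 354, 398 and 358 CPM in the tau IP of B, C, L and M and 539, 594 and 416 in the EYFP IP of H, I and K. Its pre-IP levels were 252, 201, 184 and 171 CPM in the tau animals and 181, 336 and 152 in the EYFP animals. As with mt-Nd6, the IP was higher in all animals but B, with a log2 fold change of 0.88 (SE 0.24, adjusted p = 0.00989, edgeR). mt-Nd4 ran from 200 to 1065 CPM in the IP (median 781) and from 289 to 599 in the pre-IP (median 439), a log2 fold change of 0.85 (SE 0.24, adjusted p = 0.0123, edgeR). mt-Nd2 ran from 131 to 836 CPM in the IP (median 589) and from 245 to 485 in the pre-IP (median 353). Its log2 fold change was 0.70 (SE 0.25, adjusted p = 0.0412, edgeR), and the call was lost with the animal as a block (adjusted p = 0.0831, edgeR). For both genes the lowest IP library was that of B.

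mt-Tm, which carries methionine, had 1.42, 5.38, 4.85 and 6.62 CPM in the tau IP libraries of B, C, L and M and 12, 4.80 and 2.93 in the EYFP IP libraries of H, I and K, against 1.61 to 3.03 in the 7 pre-IP libraries. It rose by a log2 fold change of 1.26 (SE 0.33, adjusted p = 0.00883, edgeR). mt-Tm ends at base 3913, and mt-Nd2 starts at the next base, 3914. mt-Tt, the threonine tRNA between mt-Cytb and mt-Tp, had 0.710 to 2.71 CPM in the IP and 0.511 to 0.882 in the pre-IP, with a log2 fold change of 0.87 (SE 0.31, adjusted p = 0.0440, edgeR). With the animal as a block that call was lost too (adjusted p = 0.0817, edgeR). mt-Nd6, mt-Nd5, mt-Nd4 and mt-Tm remained called higher, 4 of 26 members. In that fit 32.6 percent of all genes were called, and 16 percent were called higher.

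The other abundant genes did not pass the threshold. mt-Rnr1 had a log2 fold change of 0.54 (SE 0.21, adjusted p = 0.0595, edgeR) and mt-Rnr2 of 0.50 (SE 0.24, adjusted p = 0.117, edgeR). mt-Nd1, the subunit of complex I encoded nearest to the rRNAs, had 0.18 (SE 0.23) and mt-Cytb, the subunit of complex III, 0.10 (SE 0.23). mt-Co1 had the opposite sign, -0.46 (SE 0.25, adjusted p = 0.182, edgeR): it was lower in the IP in animals B, C, H and L and higher in I, K and M. Among the named tRNAs, mt-Tq had -0.07 (SE 0.21) and mt-Tp 0.40 (SE 0.20, adjusted p = 0.142, edgeR). Leaving out animal B turned mt-Rnr1, mt-Rnr2, mt-Nd1 and mt-Tp into calls, cost that of mt-Tt, and raised the count of members called from 6 to 9.

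**Figure D4:**
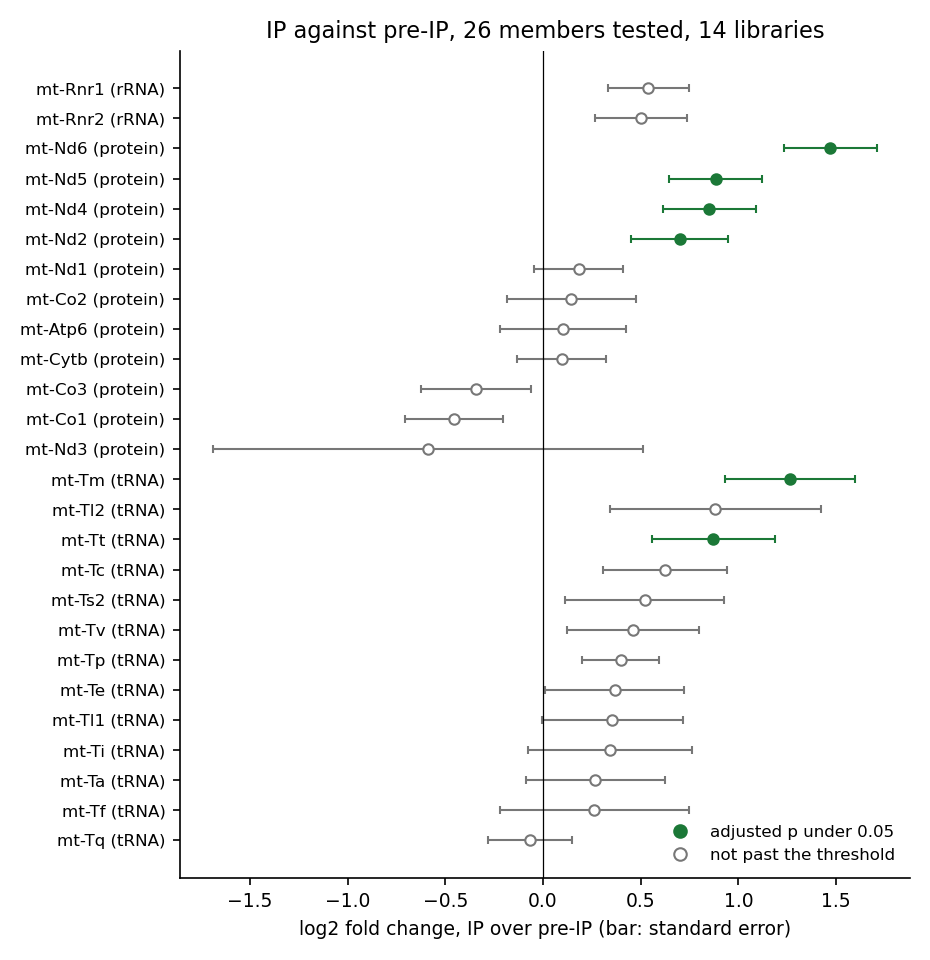
Log2 fold change of the IP over the pre-IP for the 26 members tested, by class, with standard errors (edgeR, 14 libraries; filled green points have an adjusted p under 0.05). The 6 filled points, 4 complex I subunits and 2 tRNAs, run from 0.70 to 1.47, and mt-Co1 lies at -0.46.

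Relative to mt-Co1, the complex I genes mt-Nd2, mt-Nd4, mt-Nd5 and mt-Nd6 were higher in the IP in each animal, including B, whose mitochondrial share was lower in the IP, while mt-Nd1 was higher in 6 of 7. The ratio of mt-Nd6 counts to mt-Co1 counts was 0.0121 to 0.0353 in the pre-IP and 0.0498 to 0.155 in the IP, so the ranges of the 2 fractions did not overlap. The log2 change of this ratio from pre-IP to IP was positive in 7 of 7 animals, with a median of 1.66 and a range of 1.04 to 3.68. The same count, 7 of 7, held for mt-Nd5 (median 1.15, range 0.56 to 2.90), mt-Nd4 (median 1.12, range 0.57 to 2.59) and mt-Nd2 (median 0.90, range 0.52 to 2.47). For mt-Rnr1, mt-Rnr2, mt-Nd1 and mt-Cytb it was 6 of 7. mt-Co1 had the lowest log2 fold change of the 9 abundant genes, so a ratio to it favours a higher IP value for the others. Within all mitochondrial counts, the part of mt-Rnr1 was higher in the IP in 5 of 7 animals and that of mt-Rnr2 in 4. That of mt-Cytb was higher in 2 and that of mt-Nd1 in 1, while mt-Nd2, mt-Nd4, mt-Nd5 and mt-Nd6 kept 7 of 7. As a part of all mitochondrial counts, mt-Nd6 made up 0.533 ± 0.0558 percent in tau pre-IP (SD, n = 4) and 0.509 ± 0.182 in EYFP pre-IP (SD, n = 3), against 1.21 ± 0.315 in tau IP and 1.30 ± 0.133 in EYFP IP. mt-Co1 made up 22.1 ± 3.07 and 22.4 ± 3.75 percent in the pre-IP of the tau and EYFP animals and 13.7 ± 2.42 and 14.1 ± 5.55 in the IP, and it was lower in the IP in 7 of 7 animals. These ratios divide by mt-Co1 or by a total that holds it, so they show unequal change and not which gene changed.

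With the EYFP animals alone, 5 of 26 members were called higher (mt-Nd6, mt-Nd5, mt-Nd4, mt-Nd2 and mt-Tm) where 3.96 percent of 19105 genes were called higher. With the tau animals alone 1 was (mt-Nd6, log2 1.20, SE 0.27), where 10.4 percent of 18949 genes were called higher. The median log2 change of the members was 0.93 in the EYFP animals and 0.01 in the tau animals. Whether the treatments differ in this is the interaction reported below, for which no member was called. Among the tau animals, the noradrenergic enrichment and the log2 ratio of the IP to the pre-IP mitochondrial share were 4.44 and -1.79 in B, 3.56 and 0.19 in C, 3.52 and 0.44 in L, and 1.74 and 0.78 in M. The EYFP animals had 0.68 and 0.42 (H), 0.95 and 0.31 (I) and 0.69 and 0.74 (K). The tau animal with the highest noradrenergic enrichment thus had the lowest mitochondrial ratio and M, with the lowest, had the highest, over 4 animals, and the part of the noradrenergic enrichment was not tested.

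The nuclear genes that work with the mitochondrial ones were described from lists that were chosen with earlier results of these data known. Nuclear subunits of complex I were called higher in the IP in 32 of 36 tested and lower in 0, with a median log2 change of 0.54. Ndufa13 rose by 0.69 and Ndufa5 by 0.66. Complex IV had 11 of 11 higher (Cox6c 0.75, Cox7c 0.60), complex III 7 of 9 (Uqcr11 0.71) and complex V 10 of 15 (Atp5me 0.90, Atp5pb 0.47), with 0 lower in each. Proteins of the mitochondrial ribosome, which are made in the cytosol, were higher for 53 of 82 and lower for 1 (Mrps2, -0.25), with Mrps18c at 0.93 and Mrpl21 at 0.65. These lists stood above the 16.3 percent of all genes called higher, and no test compared them with the mitochondrial genes.

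Genes that copy, transcribe and process mitochondrial RNA went both ways. Of 11 transcription genes 2 were higher and 1 was lower: Mterf2 rose by 1.06 and Mrpl12 by 0.46, while Polrmt, the mitochondrial RNA polymerase, fell by 0.74 on the log2 scale. Of 10 genes of mitochondrial DNA maintenance 2 were higher (Rrm2b 0.65, Ssbp1 0.56) and 3 lower, among them Polg, the mitochondrial DNA polymerase, at -0.98. RNA processing and stability had 5 higher and 3 lower of 26, with Trnt1, which adds the CCA end to tRNAs, at 0.78 and Supv3l1, a helicase of RNA decay, at -0.54. Translation factors had 5 higher and 0 lower of 14 (Mtrf1l 0.68, Mtif2 0.67). Mitochondrial aminoacyl-tRNA synthetases had 2 higher and 3 lower of 17 (Rars2 0.44, Aars2 -0.56). The leucine enzyme Lars2 was far more abundant than the others, with 776 to 1169 CPM in the pre-IP of the EYFP animals and 852 to 938 in that of the tau animals. In the IP it had 1843, 2368, 1525 and 1589 CPM in the tau animals B, C, L and M and 2806, 1394 and 1221 in the EYFP animals H, I and K. Its log2 fold change was 1.03 (SE 0.17, adjusted p = 0.000407, edgeR), and none of the 37 mitochondrial genes aligned to its transcripts.

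Tau IP was compared with EYFP IP, the contrast named in the series' design. No member was called among 26 tested, and edgeR called 0 of 19472 genes (0 percent; 12 percent had an unadjusted p under 0.05, and 0 members did). DESeq2 and limma voom with quality weights also called 0 members, and over all genes DESeq2 called 312 as higher and 30 as lower. The log2 difference was negative for 24 of 26 members, with a median of -0.53 against -0.08 over all genes. The protein genes had a median of -0.47, the rRNA genes -0.04 and the 13 tested tRNA genes -0.80, all 13 of them negative. The values were tied to single animals: the median over the members was -0.32 without B, the lowest tau library, and -0.17 without H, the EYFP library with the highest tRNA levels. The sign also moved with the library numbers. The mean log2 CPM of tau minus that of EYFP was taken within each range. For the 9 abundant genes it was -1.72 (mt-Nd2) to -0.65 (mt-Rnr1) among libraries of animals numbered up to 11 (2 tau, 2 EYFP). Among those from 17 (2 tau, 1 EYFP) they had -0.14 (mt-Nd5) to 0.65 (mt-Rnr1), and 6 of the 9 were positive. Of the named tRNAs, mt-Tm turned from -1.46 to 0.95, mt-Tv from -1.78 to 0.32 and mt-Te from -1.68 to 0.29. The 2 most abundant ones moved less clearly, mt-Tq from -0.93 to 0.02 and mt-Tp from -0.96 to -0.09, which stayed negative. The part of the library range in these differences was not tested.

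mt-Nd5 was the member with the smallest p. Its 4 tau IP libraries, at 104 to 398 CPM, lay below its 3 EYFP IP libraries, at 416 to 594, with a log2 difference of -0.68 (SE 0.35, adjusted p = 0.465, edgeR). It was the only member of the 26 without overlap, while 9.22 percent of all genes lay lower and 6.36 percent higher without overlap. mt-Nd6 had -0.55 (SE 0.31), mt-Co1 -0.40 (SE 0.38) and mt-Tp -0.50 (SE 0.27), each with overlapping groups. mt-Rnr2 had -0.25 (SE 0.40) and mt-Rnr1 0.17 (SE 0.36). mt-Nd3, whose counts split between the animals as shown above, had 1.27 (SE 1.52), which became -1.95 with the library range as a covariate. mt-Nd3 and mt-Rnr1 were the members with a positive difference.

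**Figure D5:**
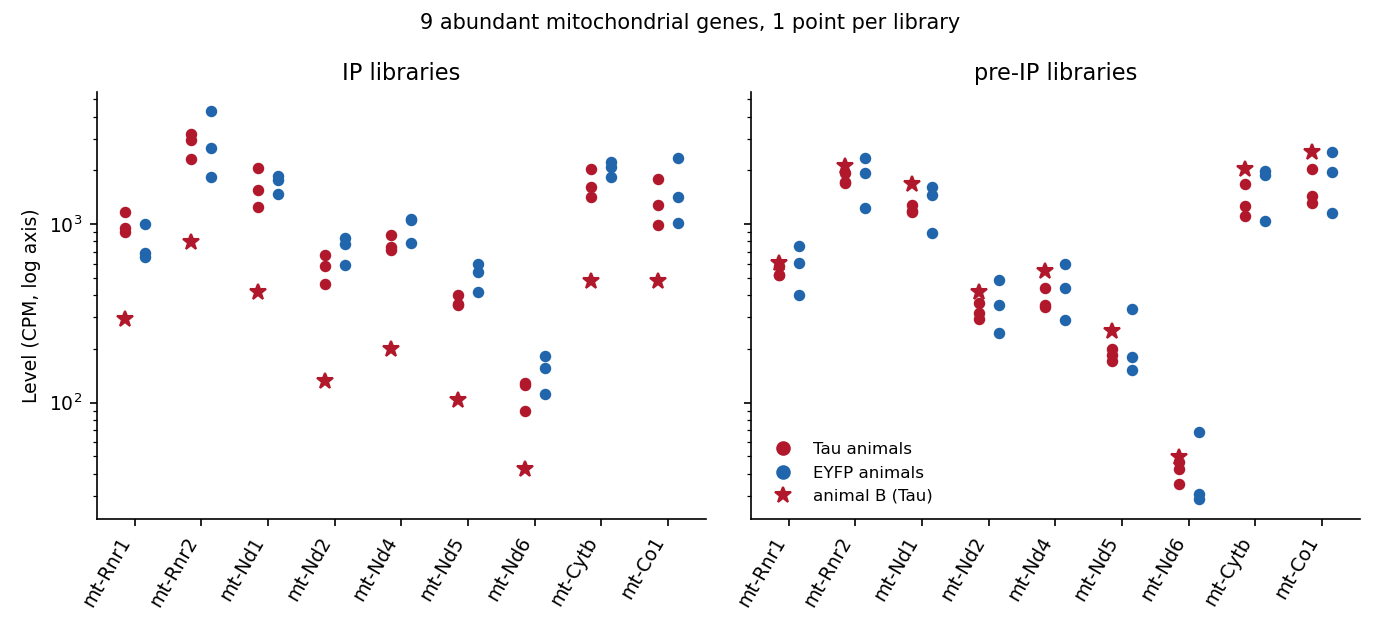
CPM (log axis) of the 9 abundant genes in every IP library and every pre-IP library (red, tau; blue, EYFP; the star is animal B). In the IP the star is the lowest point of each gene, and among these genes the tau and EYFP points are apart for mt-Nd5 alone (104 to 398 against 416 to 594 CPM).

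Markers of cell types moved with the same contrast. The summed level of the 12 noradrenergic markers was 1070 to 7168 CPM in tau IP and 564 to 642 in EYFP IP, and 12 of 12 had a positive log2 difference, with none called. The 8 markers of other neurons summed to 334 to 597 CPM in tau IP and 803 to 832 in EYFP IP, again without overlap. The 7 oligodendrocyte markers summed to 3639 to 10329 against 8831 to 13144 CPM, the 7 astrocyte markers to 2088 to 4113 against 3680 to 4724, the 6 microglia markers to 113 to 224 against 209 to 259 and the 5 endothelial markers to 20.6 to 42.2 against 32.5 to 41.6. All of these glial, endothelial and other neuronal markers had a negative log2 difference, 0 of them was called, and no marker of any list was at 0. Their part in the mitochondrial differences was not tested. The nuclear partners differed by list in the same libraries. Of the subunits and ribosomal proteins, 33 of 36 nuclear subunits of complex I, 11 of 11 of complex IV and 76 of 82 mitochondrial ribosomal proteins were positive, with medians of 0.53, 0.63 and 0.41 and none called. Complex III had 7 of 9 positive (median 0.47) and complex V 13 of 15 (0.49). The lists for mitochondrial transcription, DNA maintenance and RNA processing had 8 of 11, 6 of 10 and 14 of 26 positive, with medians of 0.11, 0.07 and 0.02. Translation factors had 6 of 14 positive (median -0.04) and aminoacyl-tRNA synthetases 6 of 17 (-0.20), and 0 genes of these lists were called. Whether the nuclear and mitochondrial genes differ was not tested.

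In the homogenates no member was called between tau and EYFP animals. edgeR called 0 of 19197 genes and 0 of 26 members; 2.84 percent of genes and 3 members, all tRNAs, had an unadjusted p under 0.05. DESeq2 and limma voom also called 0 members. The 9 abundant genes had log2 differences from -0.13 to 0.05 over all libraries. As differences of mean log2 CPM they had -0.26 (mt-Rnr1) to 0.06 (mt-Nd6) among animals with libraries numbered up to 11. Among those from 17 they had 0.18 (mt-Cytb) to 0.57 (mt-Rnr2), where all 9 were higher in tau (2 tau, 1 EYFP). The tau contrast in the share was -0.0513 and 0.158 percentage points in these ranges. The 13 tested tRNA genes were all positive, from 0.03 to 0.73, with a median of 0.39, where the median of all genes was 0.00. Their sizes also moved with the library numbers. As differences of mean log2 CPM up to 11, mt-Te had -0.13, mt-Tv -0.09, mt-Tq 0.01, mt-Tp 0.35 and mt-Tm 0.56. From 17, with 1 EYFP animal, the same genes had 0.44, 0.95, 0.98, 0.56 and 0.70. The part of the library range in this was not tested. mt-Tm had 2.55, 2.96, 3.03 and 2.26 CPM in the tau pre-IP of B, C, L and M and 1.77, 1.97 and 1.61 in the EYFP pre-IP of H, I and K, without overlap. It was the only member without overlap, 1.33 percent of genes being higher and 1.78 percent lower without overlap. Its log2 difference was 0.62 (SE 0.22, adjusted p = 1.00, edgeR). mt-Tq had 0.44 (SE 0.20, adjusted p = 1.00, edgeR) with overlapping groups.

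The interaction of treatment and fraction tests whether the tau contrast differs between IP and pre-IP. edgeR called 0 of 20495 genes and 0 of 26 members; 5.97 percent of genes and 4 members, again all tRNAs, had an unadjusted p under 0.05. DESeq2, limma voom and a fit blocked on the animal called 0 members as well. The members' median was -0.75, against -0.05 over all genes, and 24 of 26 were negative. mt-Tp had the smallest p, with -0.89 (SE 0.34, adjusted p = 0.793, edgeR), and mt-Nd6 and mt-Nd5 had -0.58 (SE 0.46) and -0.56 (SE 0.47). This contrast shares its libraries with those above, and its sign for the tRNAs joins the positive pre-IP and negative IP differences already given.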

How the data were processed

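The 7 animals each gave an IP and a pre-IP library of brainstem RNA, 14 in all. According to the protocols per the labels, they were made from polyA RNA with SMART-Seq v4 and Nextera XT kits, and the submitters' processing notes name FastQC, Trim Galore, STAR and featureCounts with GRCm38 and mm10. The authors deposited whole-number counts per gene, not normalized. Use of strand, the counting of reads or pairs and the treatment of multiply aligned reads are not given in the sources used here. A deposited sample sheet holds RNA integrity as a score, RNA concentration in another unit, and base quality and GC content in percent, per the file headers.

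Members were matched by symbol, and all 37 had the coordinates of GENCODE M21. The members and gene lists were chosen with earlier results of these data known. Tests were edgeR's quasi-likelihood tests (version 4.0.16, R 4.3.3) on all genes kept by filterByExpr, with TMM scaling, Benjamini-Hochberg adjustment and a threshold of 0.05. The SE of an edgeR log2 fold change is its size divided by the square root of F. Each treatment contrast used its own libraries, and IP against pre-IP and the interaction used all 14, the first with treatment as an additive term. CPM is counts scaled to a library total of 1e+06, and percent shares were computed from the deposited counts. Log2 ratios per animal used a prior count of 2, except those of the mitochondrial share and of the ratios to mt-Co1, which used none. Sequences were compared by exact windows of 50 bases and by BLAST 2.17.0 against GENCODE M21 transcripts. All 15 rRNA and protein genes and the 5 tRNA genes with the highest mean CPM could be named. Outside the members the rule allowed Lars2, annotated nuclear copies, Dbh, Th, Slc6a2 and, per list, the 2 members with the smallest p in each direction of IP against pre-IP. The alternatives were other scalings and filters, DESeq2 1.42.0, limma 3.58.1, covariates, leaving out each animal, and an animal block. The fractions come from the same animal, and their deviations from the group means correlated at 0.147 to 0.359 in the 7 animals over 20495 genes. The fits were tested on simulated data with 200 changed genes. Of changes of 1 on the log2 scale they recovered 21 percent in tau IP against EYFP IP and 55 percent in the pre-IP contrast. The figures were 68 percent in IP against pre-IP and 7 percent in the interaction. For changes of 2 they were 69, 88, 88 and 55 percent in the same order. Absence of calls in the tau IP contrast and the interaction therefore does not show absence of such changes.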

Additional observations from a re-analysis of the deposited data

Results flagged for a closer look

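In tau IP, the library of animal B lay far from the other 3 in a test for a single distant sample, for mt-Nd4 (199.7 CPM, against 715 to 863), mt-Nd5 (104 CPM, against 354 to 398) and mt-Tv (0.997 CPM, against 3.29 to 4.09). The gap to the nearest library was 0.872, 0.912 and 0.845 of the whole range of the group on the log2 scale. The test was run on 39 groups of 4 samples, and chance flags about 1 in 20 groups.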

How the results depend on the processing

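Under every alternative run, 0 members were called in tau IP against EYFP IP, in the pre-IP contrast and in the interaction. For IP against pre-IP the count of 6 became 1 with tau animals only, and 4 with the animal as replicate block or with library totals in place of TMM. Leaving out an animal gave 4 (C, H, K or M), 5 (I or L) or 9 (B). mt-Nd6 was called in 19 of 19 alternatives, mt-Nd5, mt-Nd4 and mt-Tm in 18 (all but tau animals only), mt-Nd2 in 10 and mt-Tt in 7. The block changed no call other than those of mt-Nd2 and mt-Tt. Over the alternatives run, the sign turned at least once for 10 of 26 members in tau IP against EYFP IP, 14 in the pre-IP contrast, 12 in IP against pre-IP and 9 in the interaction. In tau IP against EYFP IP, mt-Rnr2 became 0.041 with limma voom and ran from -0.50 to 0.10 with an animal left out (positive without B or H), and mt-Rnr1 ran from -0.034 (without M) to 0.44. mt-Nd3 became -1.95 with the library-number range as a covariate and ran from -0.013 (without M) to 3.36 (without I) with an animal left out. In IP against pre-IP, mt-Cytb became -0.099 with tau animals only and ran from -0.019 (without M) to 0.34 with an animal left out, mt-Tp (0.40), mt-Tv (0.46) and mt-Te (0.37) became -0.011, -0.083 and -0.17 with tau animals only, and mt-Tq became 0.45 with EYFP animals only and ran from -0.27 to 0.051, positive without C, L or M. The causes were not tested. Library totals without TMM moved the median of all genes in tau IP against EYFP IP from -0.08 to -0.18 on the log2 scale, and the members' median from -0.53 to -0.62. The pre-IP tau contrast in the share, -0.0194 percentage points, ran from -0.165 to 0.0659 with an animal left out, and the IP contrast, -0.296, from -0.415 to -0.111. Counts of 0 to 3 in a library limit mt-Atp8, and the counts of mt-Co2, mt-Atp6, mt-Co3, mt-Nd3 and mt-Nd4l are uncertain, nearly all of their windows being shared. The levels of mt-Co1 and mt-Nd4 beside other genes are uncertain as well, with 51.1 and 62.2 percent of windows shared.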
